A study of Mus musculus with 192 samples.

Results

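Results are given for 5 genes of the Fc receptor family, Fcgr1, Fcgr2b, Fcgr3, Fcgr4 and Fcer1g, chosen by name from the 23481 genes of the count table. All 5 were found, and all 5 were among the 4720 genes with enough counts to be tested. They were followed in dendritic cells, which present antigen to T cells, grown in GM-CSF at 15 ng/mL from bone marrow of C57BL/6J mice, all female and aged 6 to 8 weeks. Wells of 100000 cells were stimulated for 6 h with ligands of the receptors through which innate immune cells sense microbial molecules. There were 64 groups of 3 libraries: a control named Ctrl, 7 single ligands, all 21 pairs and all 35 triplets of those ligands. The 7 ligands keep their label names, which are PAM, LPS, HMW, Zymosan (labelled as depleted), SeV, cGAMP (3',3'-cGAMP, a cyclic dinucleotide) and CpGB. No dose is stated for any ligand, and what Ctrl wells received is not described. Nothing states that the 3 libraries of a group came from separate animals or cultures, so the p-values below measure the spread between these libraries, which may be technical.

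Fc gamma receptors bind the constant part of immunoglobulin G, and so let a phagocyte or dendritic cell take up antibody-coated material. Fcgr1, Fcgr3 and Fcgr4 encode activating receptors. Fcgr1 binds monomeric immunoglobulin G with high affinity, Fcgr3 is a low-affinity receptor, and Fcgr4 prefers certain immunoglobulin G subclasses. All of these need the common gamma chain encoded by Fcer1g, whose ITAM (an activating tyrosine motif) recruits the kinase Syk. Fcgr2b encodes the inhibitory receptor, which carries an ITIM (an inhibitory tyrosine motif) and recruits the lipid phosphatase encoded by Inpp5d. In dendritic cells, the balance of activating and inhibitory receptors is known for setting the response to immune complexes.

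Library totals ranged from 46564 to 610234 UMIs, with a median of 171616. A UMI (unique molecular identifier) marks 1 original cDNA molecule. The Ctrl libraries were among the shallower ones (73431 ± 14389 UMIs, SD, n = 3; 61823 to 89530). Per library, Fcgr1 had 2 to 388 UMIs, Fcgr2b 5 to 382, Fcgr3 4 to 117, Fcgr4 5 to 176 and Fcer1g 80 to 2425. In the 3 Ctrl libraries, Fcgr1 had 4, 4 and 8 UMIs, the lowest counts of the 5 genes there, so a fold against Ctrl is least precise for it. Of 10 dendritic cell markers, 9 had counts in Ctrl and together made up 6231 to 6759 counts-per-million (CPM); the exception was Zbtb46, at 0. Group means of this sum ranged from 6442 CPM (HMW+cGAMP) to 8917 CPM (PAM+HMW+SeV). Macrophage markers were also present: 8 of 10 had counts in Ctrl, with a sum of 3991 to 4234 CPM there and group means from 2527 CPM (LPS+cGAMP+CpGB) to 4966 CPM (PAM+HMW), and Mertk at 0 in Ctrl. Neutrophil markers summed to 662 to 942 CPM in Ctrl, with Mpo and Elane at 0. Mast cell and basophil markers, which matter here because mast cells use Fcer1g, summed to 0 to 49.9 CPM in Ctrl, with Fcer1a and Ms4a2 at 0. T and B cell markers were at 0 in Ctrl. In such bulk samples fewer cells of a type and less RNA per cell cannot be told apart, and the part of a changing cell mixture in the results below was not tested.

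In the GENCODE M21 annotation of GRCm38 (mm10), Fcgr1 lies alone at chr3:96282909-96293969 on the minus strand. The other genes lie close together on chromosome 1. Fcgr2b is at chr1:170958617-170976547 (minus), Fcgr4 at chr1:171018920-171029761 (plus), Fcgr3 at chr1:171051174-171064935 (minus) and Fcer1g at chr1:171229572-171234365 (minus). Fcgr2b overlaps the antisense gene Gm38204, Fcgr3 overlaps Mir6546 and Fcgr4 overlaps the small nuclear RNA gene Gm26110, and how the authors' counting treated strand is not given in the sources used here. Fcgr2b and Fcgr3 share sequence: 166 stretches of 50 bases were identical between their transcripts, which is 4.75% of those of Fcgr2b and 12.8% of those of Fcgr3. None of them fell in the last 500 bases of either transcript. Because the treatment of reads that match both genes is not given, the levels of Fcgr2b and Fcgr3 carry that uncertainty. The other 3 genes shared no such stretch with any member.

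RefSeq promoter sequences were available for all 5 genes. The sequences upstream of the start of Fcgr1 and Fcgr4 are shown because both genes rose under SeV, cGAMP and CpGB, as described below, and because each holds a motif known from interferon-responsive genes. Both windows are the 130 bases before the RefSeq start in GRCm38.p6, written 5′ to 3′ on the gene's own strand. Fcgr1 is chr3:96293970-96294099 (minus) and Fcgr4 is chr1:171018796-171018925 (plus). Capitals mark motif matches.
Fcgr1: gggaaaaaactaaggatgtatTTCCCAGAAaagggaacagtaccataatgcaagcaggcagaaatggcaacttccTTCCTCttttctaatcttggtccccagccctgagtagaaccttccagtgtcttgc
Fcgr4: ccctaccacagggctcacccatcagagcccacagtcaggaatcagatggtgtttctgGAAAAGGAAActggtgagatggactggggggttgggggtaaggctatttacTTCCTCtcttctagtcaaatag
The first capitals in Fcgr1 are a match to TTCNNNGAA, the letters of the STAT-bound GAS element, beginning 109 bases before the start. In Fcgr4 the first capitals are GAAA and GAAA separated by 2 bases, the letters of the interferon-stimulated response element, beginning 73 bases before the start. The second capitals in both are TTCCTC, the reverse complement of GAGGAA, letters bound by the myeloid factor PU.1, at 55 bases before the start in Fcgr1 and 22 in Fcgr4. Both strands were searched in windows from 250 bases before to 50 after the start, and no matches overlapped. Of 32851 promoters of that length, 8.30% held the GAS letters, 3.44% the response element letters and 28.3% the PU.1 letters. Fcgr3 held the PU.1 letters, while Fcgr2b and Fcer1g held none of these, and no member held GGGA and TTCC separated by 2 bases, letters of the kB element, found in 1.47% of promoters. A match is a description of letters and not of binding.

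Single ligands divided the activating receptors. Fcgr1 rose under LPS, SeV, cGAMP and CpGB, Fcgr4 rose under SeV, cGAMP and CpGB, and Fcgr3 did not rise under any ligand but fell under PAM, LPS, Zymosan and CpGB. The inhibitory Fcgr2b rose under PAM and CpGB. A change was called where the log2 fold change was 1 or more in size and the adjusted p was under 0.05 (quasi-likelihood test of edgeR, Benjamini-Hochberg adjustment over 4720 genes). Over all tested genes, 8.7% of gene and ligand combinations were called higher and 4.95% lower. By ligand, the share of genes called in either direction was 13.9% for PAM, 24.2% for LPS, 0.975% for HMW, 6.25% for Zymosan, 15.6% for SeV, 17.6% for cGAMP and 17% for CpGB. Of the 35 combinations of the 5 members, 9 were called higher and 6 lower.

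The high-affinity receptor gene Fcgr1 had 55.4, 49.9 and 76.8 CPM in the 3 Ctrl libraries. It had 592, 636 and 643 CPM with SeV, 513, 520 and 503 CPM with cGAMP, and 409, 460 and 483 CPM with LPS. With CpGB it had 213, 214 and 327 CPM. All 12 of these libraries were above every Ctrl library, and the SeV libraries were the highest of the single ligands. The log2 fold changes were 3.32 for SeV (SE 0.37, adjusted p = 5.69e-15), 3.03 for cGAMP (SE 0.38, adjusted p = 3.38e-12), 2.85 for LPS (SE 0.38, adjusted p = 3.84e-11) and 2.04 for CpGB (SE 0.42, adjusted p = 3.25e-05). HMW gave 166, 215 and 83.7 CPM, all above Ctrl, but its log2 fold change of 1.30 did not pass (SE 0.46, adjusted p = 0.207). Without HMW replicate 3, the lowest of the 3, it did pass (1.67, adjusted p = 0.0291), as it did without the filter on low counts (1.46, adjusted p = 0.018). PAM gave 13.1, 20.1 and 33.3 CPM, all below Ctrl, with a log2 fold change of -1.43 that did not pass in edgeR (SE 0.67, adjusted p = 0.141) and passed in DESeq2 (-1.60, adjusted p = 0.0455). Zymosan gave 18.4, 70.4 and 28.0 CPM and overlapped Ctrl. Under the ligands that raised Fcgr1, the summed level of the macrophage markers averaged 3177 CPM with LPS, 3435 with SeV, 3094 with cGAMP and 3764 with CpGB, against 4104 in Ctrl; its part in the result was not tested.

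Fcgr4 followed Fcgr1 in part. Its Ctrl libraries had 139, 112 and 125 CPM. It had 385, 368 and 430 CPM with cGAMP, 229, 261 and 300 CPM with SeV, and 175, 230 and 323 CPM with CpGB. The libraries of these 3 ligands were all above Ctrl, and those of cGAMP were above all others. The log2 fold changes were 1.66 for cGAMP (SE 0.31, adjusted p = 4.08e-06), 1.11 for SeV (SE 0.33, adjusted p = 0.00802) and 1.02 for CpGB (SE 0.33, adjusted p = 0.0129). The SeV value fell just under the fold threshold with RLE scaling (0.99), library size alone (0.92) and DESeq2 (0.98), and it did not pass without replicate 3 of all groups (0.98, adjusted p = 0.107). The CpGB value was also under it with these 3 scalings or tools (0.92, 0.80 and 0.91), and it did not pass without CpGB replicate 3 (0.79, adjusted p = 0.142). LPS gave 179, 233 and 224 CPM, all above Ctrl, with a log2 fold change of 0.78 that did not pass (SE 0.33, adjusted p = 0.0646). It passed without replicate 1 of all groups (1.05, adjusted p = 0.0334) and without the filter on low counts (1.03, adjusted p = 0.00949). PAM gave 32.8, 60.3 and 50.0 CPM, all below Ctrl, a log2 difference of -1.34 (SE 0.44, adjusted p = 0.0197). That call was lost without Ctrl replicate 1 (-1.25, adjusted p = 0.0767), Ctrl replicate 3 (-1.32, adjusted p = 0.0785) or PAM replicate 1 (-1.12, adjusted p = 0.0894). HMW (102 to 161 CPM) and Zymosan (55.2 to 115 CPM) overlapped Ctrl.

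Fcgr3 went the other way. Ctrl had 277, 399 and 413 CPM, the highest mean of all 64 groups. PAM gave 164, 111 and 88.9 CPM, LPS 171, 166 and 134 CPM, Zymosan 175, 141 and 159 CPM, and CpGB 155, 189 and 189 CPM. All 12 of these libraries were below every Ctrl library. The log2 fold changes were -1.62 for PAM (SE 0.26, adjusted p = 3.73e-08), -1.25 for LPS (SE 0.24, adjusted p = 7.54e-06), -1.23 for Zymosan (SE 0.25, adjusted p = 7.52e-05) and -1.02 for CpGB (SE 0.24, adjusted p = 0.000322). The CpGB value lies at the fold threshold and was under it without Ctrl replicate 2 (-0.85), Ctrl replicate 3 (-0.80), CpGB replicate 1 (-0.82) or CpGB replicate 2 (-0.98). The LPS value was just under the threshold without replicate 3 of all groups (-0.99) and without the filter on low counts (-0.99). HMW (291 to 335 CPM) and SeV (281 to 401 CPM) overlapped Ctrl. cGAMP gave 266, 240 and 258 CPM, all below Ctrl, with a log2 fold change of -0.54 that did not pass (SE 0.23, adjusted p = 0.0791).

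The signalling chain Fcer1g varied least. Its Ctrl libraries had 1856, 1609 and 2208 CPM, against 3327, 3519 and 3589 CPM with LPS, 3338, 3308 and 3726 CPM with CpGB and 3123, 2720 and 3050 CPM with PAM. All 9 of these libraries were above Ctrl. The log2 fold changes were 0.87 for LPS (SE 0.13, adjusted p = 2.07e-09), 0.86 for CpGB (SE 0.13, adjusted p = 4.96e-09) and 0.64 for PAM (SE 0.13, adjusted p = 2.90e-05), all under the fold threshold of 1. Without Ctrl replicate 3, the highest Ctrl library, LPS (1.08) and CpGB (1.10) passed it, and without CpGB replicate 1 so did CpGB (1.02). SeV gave 2207 to 2599 CPM, 0.37 (SE 0.13, adjusted p = 0.0325), and cGAMP gave 2201 to 2378 CPM, 0.28 (SE 0.13, adjusted p = 0.117). HMW (-0.02) and Zymosan (0.05) overlapped Ctrl, and the sign of the Zymosan value turned with RLE scaling (-0.08) and with library size alone (-0.09).

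The inhibitory receptor gene Fcgr2b had 180, 274 and 125 CPM in Ctrl. PAM gave 577, 568 and 572 CPM and CpGB gave 524, 424 and 475 CPM, all above Ctrl. The log2 fold changes were 1.60 for PAM (SE 0.27, adjusted p = 2.95e-07) and 1.31 for CpGB (SE 0.28, adjusted p = 5.80e-05). cGAMP gave 119, 99.3 and 67.5 CPM, all below Ctrl, a log2 difference of -1.01 (SE 0.38, adjusted p = 0.0379). This call was lost without Ctrl replicate 1 (-0.99, adjusted p = 0.0837), Ctrl replicate 2 (-0.59, adjusted p = 0.411), cGAMP replicate 2 (-1.01, adjusted p = 0.0947) or cGAMP replicate 3 (-0.75, adjusted p = 0.212). HMW gave 74.8, 112 and 112 CPM, all below Ctrl, with a value that did not pass (-0.86, adjusted p = 0.368). SeV gave 84.3 to 131 CPM (-0.73, adjusted p = 0.162), Zymosan 149 to 239 CPM (-0.07) and LPS 183 to 299 CPM (0.42), and all 3 overlapped Ctrl. The SeV value passed as lower without replicate 3 of all groups (-1.21, adjusted p = 0.0314) and with libraries thinned to equal depth (-1.18, adjusted p = 0.0481). Thinning also put the CpGB value under the fold threshold (0.86).

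**Figure D1:**
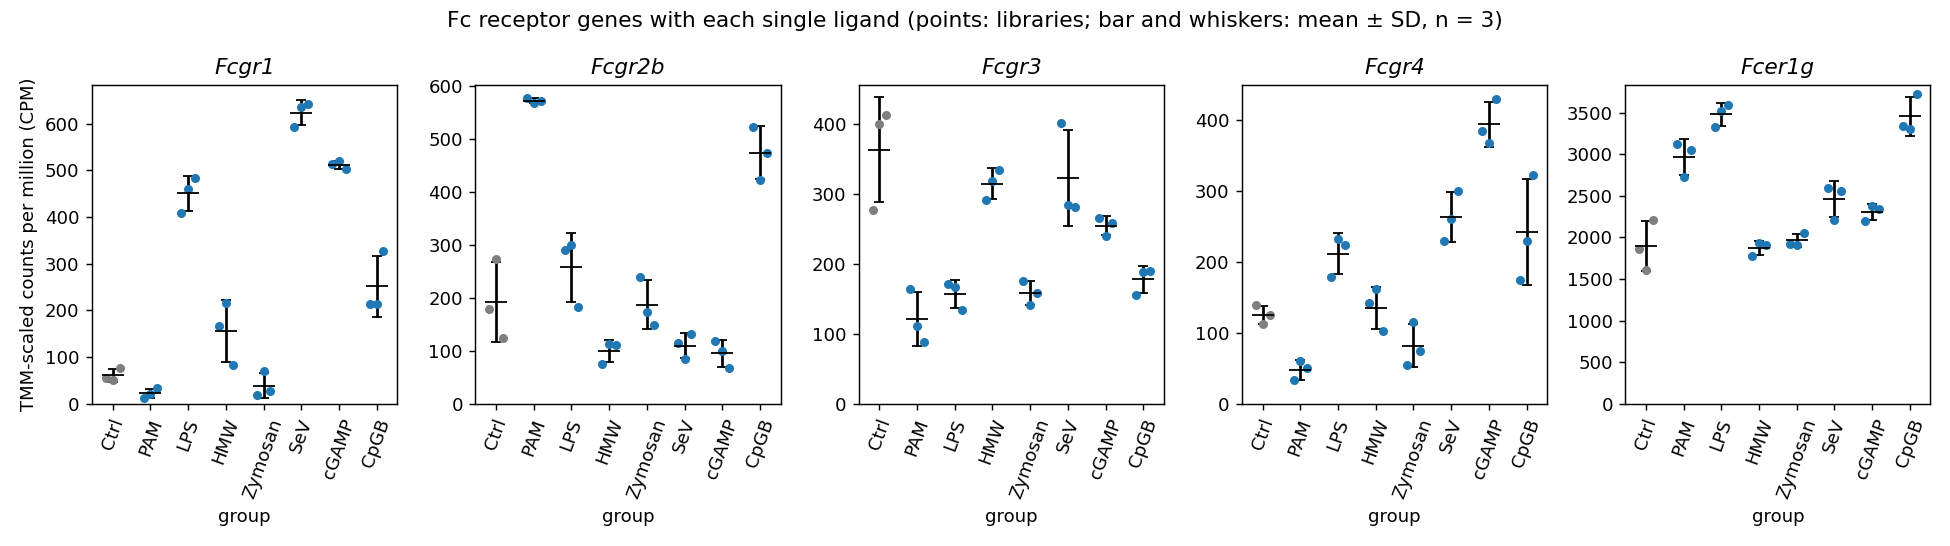
Level of each gene in Ctrl and under the 7 single ligands, in counts-per-million of the TMM-scaled library. Each point is 1 library, and bar and whiskers are the mean ± SD of 3. Fcgr1 is highest with SeV (mean 624 CPM), Fcgr4 with cGAMP (394 CPM), Fcgr2b with PAM (573 CPM) and Fcer1g with LPS (3478 CPM), while Fcgr3 is highest in Ctrl (363 CPM).

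Ordered by mean over Ctrl and the 7 single ligands, Fcgr1 ran SeV, cGAMP, LPS, CpGB, HMW, Ctrl, Zymosan, PAM. Fcgr4 ran cGAMP, SeV, CpGB, LPS, HMW, Ctrl, Zymosan, PAM, so the same ligands had means above Ctrl, and the same means below it, for both genes, although HMW overlapped Ctrl for Fcgr4 and its log2 fold change ranged from -0.11 to 0.32 with a replicate left out. Fcgr3 ran Ctrl, SeV, HMW, cGAMP, CpGB, Zymosan, LPS, PAM. Fcgr2b ran PAM, CpGB, LPS, Ctrl, Zymosan, SeV, HMW, cGAMP, and Fcer1g ran LPS, CpGB, PAM, SeV, cGAMP, Zymosan, Ctrl, HMW. Of the 7 neighbouring pairs in each order, the libraries overlapped in 3 for Fcgr1, 4 for Fcgr2b and Fcer1g, and 5 for Fcgr3 and Fcgr4. The highest mean was 28.1-fold the lowest for Fcgr1, 11.5-fold for Fcgr2b, 10.5-fold for Fcgr4, 3.54-fold for Fcgr3 and 2.27-fold for Fcer1g over all 64 groups. Between single ligands, 14 of 21 comparisons were called for Fcgr1, 12 for Fcgr2b, 11 for Fcgr4 and 6 for Fcgr3, by the same thresholds. Over all genes, 13.7% of such comparisons were called. For Fcer1g 0 of 21 were called in edgeR, 16 had an unadjusted p under 0.05, and DESeq2 also called 0.

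Over all 63 stimulated conditions, Fcgr1 was called higher than Ctrl in 54 and lower in 0, while 14.3% of all gene and condition combinations were called higher and 9.03% lower. In 57 conditions all 3 libraries were above Ctrl, in 2 all were below it, and in 4 they overlapped it. No all-gene share of such non-overlap was computed, and all 63 comparisons use the same 3 Ctrl libraries. The unadjusted p was under 0.05 in 1 condition below Ctrl, PAM alone, which DESeq2 also called lower. The groupings of ligands used from here on were chosen after the values were seen. Fcgr1 rose in all 49 conditions that held LPS, SeV or cGAMP, with means from 188 CPM (LPS+cGAMP+CpGB) to 624 CPM (SeV alone). Of the 14 conditions without these, it rose in 5: CpGB, HMW+CpGB, Zymosan+CpGB, HMW+Zymosan+CpGB and PAM+HMW+Zymosan. The last of these rested on uneven libraries of 394, 74.0 and 157 CPM, of which the second fell within the Ctrl range (log2 fold change 1.69, SE 0.43, adjusted p = 0.00073). PAM+CpGB, with 85.9, 88.8 and 40.0 CPM, did not pass (0.19, SE 0.57, adjusted p = 0.877).

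Fcgr4 was called higher in 33 conditions and lower in 1, PAM alone, against 14.3% and 9.03% of all combinations. Its lower calls were thus below the all-gene share. It rose in 31 of the 49 conditions with LPS, SeV or cGAMP and in 2 of the 14 without them, CpGB and HMW+Zymosan+CpGB. The highest level was with cGAMP+CpGB, at 450, 510 and 550 CPM (log2 fold change 2.02, SE 0.30, adjusted p = 2.05e-09). All 3 libraries were above Ctrl in 52 conditions, so more conditions stood above Ctrl than passed. No all-gene share was computed for that count either. With library size alone as the scaling, 18 conditions were called higher. The single lower call went to 0 without Ctrl replicate 1 or without Ctrl replicate 3.

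Fcgr3 was called lower in 24 conditions and higher in 0, against 9.03% and 14.3% of all combinations. Without the fold threshold 42 conditions were lower, against 11.8% of all combinations. In edgeR the highest log2 fold change was -0.08, so no condition lay above Ctrl. DESeq2 had 0 conditions above Ctrl at an unadjusted p under 0.05. The lowest level was with PAM+CpGB, at 115, 81.4 and 112 CPM, all below Ctrl (log2 fold change -1.85, SE 0.28, adjusted p = 1.45e-08). Several conditions that held Zymosan with PAM stayed near Ctrl: PAM+Zymosan had 368, 324 and 250 CPM and PAM+Zymosan+CpGB had 361, 309 and 374 CPM, and both overlapped Ctrl. The second of these turned to just above Ctrl without Ctrl replicate 2 (0.04) or Ctrl replicate 3 (0.09). The count of lower calls was 15 without Ctrl replicate 3 and 39 with library size alone. Of the 22 conditions with Zymosan, 2 were called lower (Zymosan alone and Zymosan+SeV), against 22 of the 41 without it. Without the fold threshold 11 of the 22 and 31 of the 41 were lower; the difference between these shares was not tested.

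Fcgr2b was called higher in 34 of 63 conditions and lower in 4, against 14.3% and 9.03% of all combinations, so its lower calls were below the all-gene share. All 34 were among the 38 conditions with PAM or CpGB, and of the 25 without either, LPS+HMW (0.78) and LPS+HMW+SeV (0.90) were higher without the fold threshold. The 4 exceptions with PAM or CpGB were PAM+SeV (mean 350 CPM), PAM+Zymosan+cGAMP (258 CPM), PAM+SeV+cGAMP (296 CPM) and Zymosan+cGAMP+CpGB (341 CPM). The highest level was with PAM+Zymosan, at 958, 884 and 789 CPM, all above Ctrl (log2 fold change 2.20, SE 0.26, adjusted p = 2.71e-13). The 4 lower calls all held cGAMP: cGAMP alone, Zymosan+cGAMP (79.5 CPM), HMW+Zymosan+cGAMP (76.6 CPM) and Zymosan+SeV+cGAMP (82.9 CPM). The count of lower calls moved with the Ctrl libraries, to 0 without Ctrl replicate 2 and 7 without Ctrl replicate 3. The split also moved with the scaling, from 34 higher and 4 lower to 29 and 6 with RLE factors and to 19 and 10 with library size alone. The all-gene median of the log2 fold changes shifted by -0.16 from TMM to RLE factors and by -0.36 from TMM to no scaling beyond library size.

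Fcer1g was called higher in 5 of 63 conditions, a share below the 14.3% of all combinations, and lower in 0. Without the fold threshold 52 were higher, against 16.5% of all combinations. Of the 11 others, the lowest value was -0.02 (HMW), and none had an unadjusted p under 0.05 below Ctrl in edgeR or DESeq2. All 38 conditions with PAM or CpGB were among the 52. The 5 that passed the fold threshold all held LPS: PAM+LPS (1.08), LPS+SeV (1.00), LPS+CpGB (1.16), LPS+HMW+CpGB (1.06) and LPS+SeV+CpGB (1.08). LPS+CpGB gave 4266, 4280 and 4236 CPM, the highest mean of the 64 groups. The count of 5 was 28 without Ctrl replicate 3, 1 with RLE factors and 0 with library size alone.

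**Figure D2:**
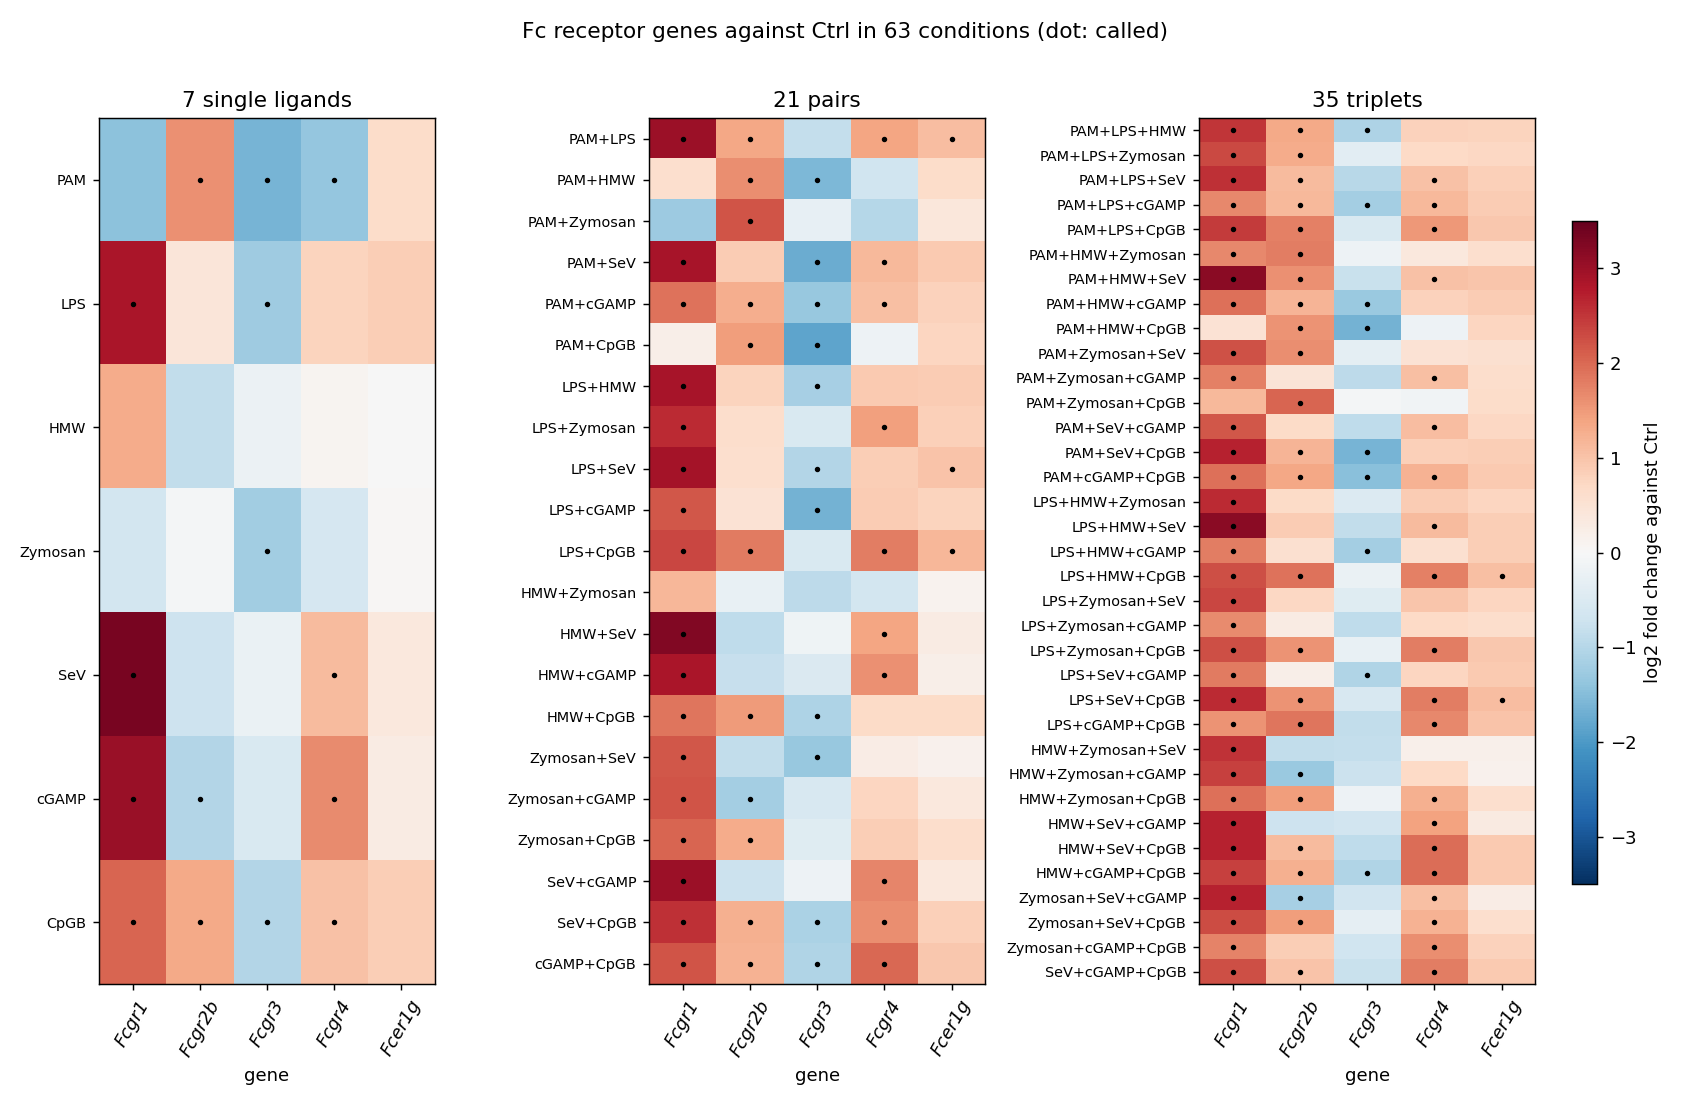
Log2 fold change against Ctrl of the 5 genes in all 63 conditions, ordered by number of ligands, with the colour scale in log2 units and dots on the conditions called changed. Fcgr1 is called higher in 54, Fcgr2b in 34 and Fcgr4 in 33 conditions, and Fcgr3 is called lower in 24.

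A ligand's average contribution was measured by adding it to the 22 backgrounds that lacked it (Ctrl, 6 singles and 15 pairs of the others) and averaging the log2 differences. A mean of at least 0.5 in size with an adjusted p under 0.05 was called, which 8.39% of all gene and ligand combinations did as higher and 5.53% as lower. Of the 35 combinations of the 5 members, 10 were called higher and 1 lower. Fcgr1 was raised most by SeV (mean log2 difference 1.09, SE 0.06, adjusted p = 2.37e-41; positive on 17 of 22 backgrounds), then by LPS (0.78, SE 0.06; positive on 13 of 22) and cGAMP (0.51, SE 0.07; positive on 11 and negative on 11). The cGAMP mean lay at the threshold and was under it with RLE scaling (0.47), with DESeq2 (0.48), with library size alone (0.38), thinned to equal depth (0.33), without replicate 1 (0.48) or 3 (0.46) of all groups and, by less than rounding, without Ctrl replicate 1 (0.50). PAM lowered Fcgr1 (-0.53, SE 0.07, adjusted p = 7.30e-12), with a negative difference on 17 of 22 backgrounds. That mean was under the threshold without replicate 2 of all groups (-0.46) and, by less than rounding, without the filter on low counts (-0.50). Without the Ctrl background, the cGAMP mean was 0.39 and the PAM mean -0.48, both under the threshold. Fcgr4 was raised by cGAMP (0.74, SE 0.06, positive on 16 of 22 backgrounds) and CpGB (0.69, SE 0.06, positive on 21 of 22). It was also raised by SeV (0.56, SE 0.06, positive on 17 of 22) and LPS (0.58, SE 0.06). The LPS difference was positive on 14 backgrounds and negative on 8, the lowest being -1.04 on HMW+cGAMP. The LPS and SeV means were under 0.5 with library size alone (0.45 and 0.48). Fcgr2b was raised by CpGB (1.25, SE 0.05, adjusted p = 6.62e-61; positive on 19 of 22), PAM (1.21, SE 0.05, adjusted p = 1.12e-59; positive on 20 of 22) and LPS (0.67, SE 0.05). For Fcgr3 and Fcer1g every mean was under 0.5 in size. The largest were 0.36 for Zymosan on Fcgr3 (SE 0.05, adjusted p = 9.31e-11) and 0.43 for LPS on Fcer1g (SE 0.03, adjusted p = 2.39e-39; positive on 21 of 22).

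**Figure D3:**
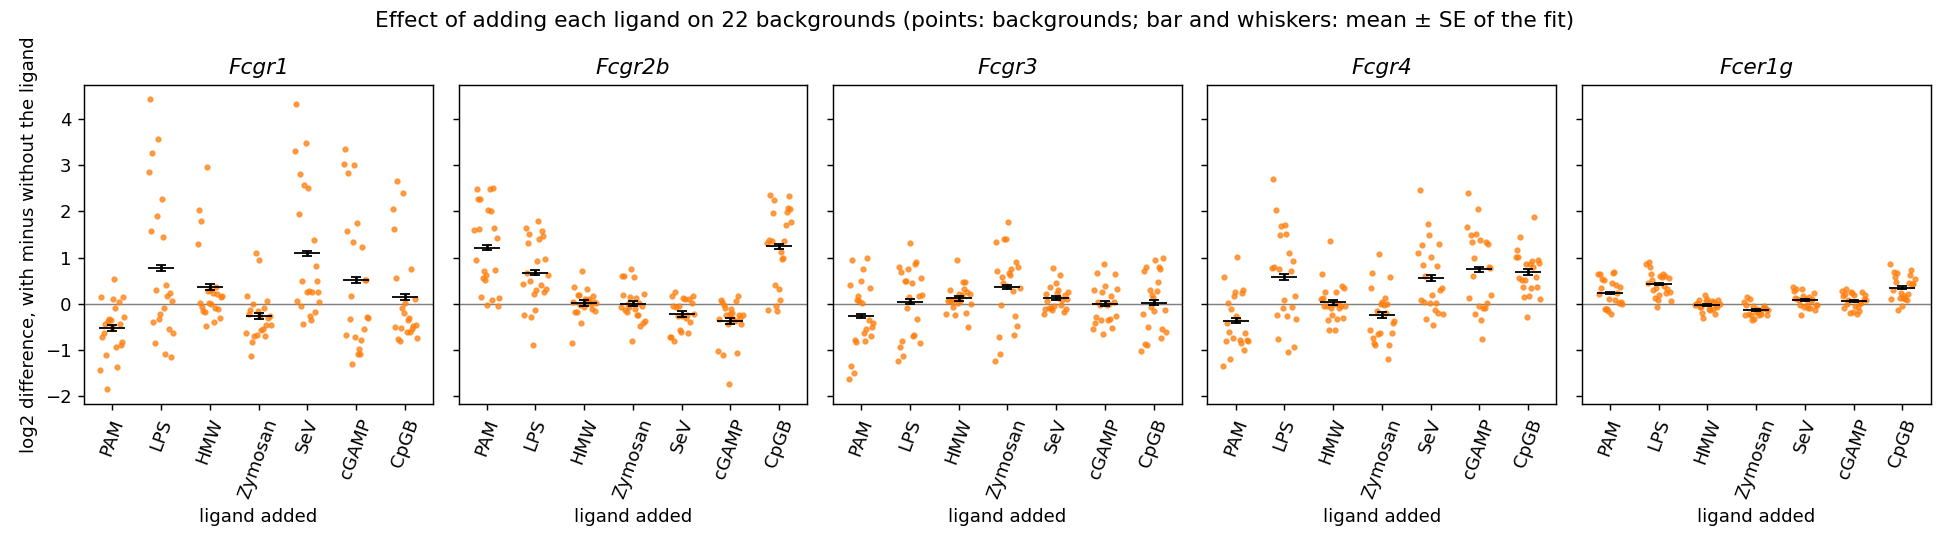
Mean log2 difference made by adding each ligand to the 22 backgrounds that lack it, per gene. Each point is 1 background, the black bar is the mean with whiskers of 1 SE from the model, and the line marks 0. Fcgr2b has its 2 highest means with CpGB (1.25) and PAM (1.21), and Fcgr1 with SeV (1.09) and LPS (0.78).

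The averages hide opposite effects on single backgrounds, where 3.28% of all combinations were called higher and 1.65% lower at a log2 fold of 1. Zymosan lowered Fcgr3 on Ctrl (-1.23) and on SeV (-1.09, adjusted p = 0.000899), from 322 to 132 CPM. It raised Fcgr3 on PAM (1.35, from 121 to 314 CPM, adjusted p = 8.00e-06), PAM+HMW (1.40), PAM+SeV (1.40) and PAM+CpGB (1.77, from 103 to 348 CPM, adjusted p = 2.46e-08). LPS similarly lowered Fcgr3 on Ctrl and on cGAMP (-1.12) and raised it on PAM+CpGB (1.32, from 103 to 258 CPM, adjusted p = 4.75e-05). For Fcgr1, PAM lowered the level on CpGB (-1.85, from 252 to 71.6 CPM, adjusted p = 0.000273), on HMW+CpGB (-1.37) and on cGAMP (-1.12). HMW, which did not pass on Ctrl, raised Fcgr1 on PAM (2.02, from 22.2 to 93.9 CPM, adjusted p = 0.00389), Zymosan (1.80) and PAM+Zymosan (2.95). cGAMP raised Fcgr1 on 8 backgrounds and lowered it on 3 that held LPS: PAM+LPS (-1.31, from 483 to 200.1 CPM, adjusted p = 4.62e-05), LPS+HMW (-1.09) and LPS+SeV (-1.09). For Fcgr2b, CpGB raised the level on 14 backgrounds and PAM on 11. cGAMP lowered Fcgr2b on 4, the largest drop being on PAM+Zymosan (-1.75, from 877 to 258 CPM, adjusted p = 3.39e-13).

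A pair interaction was the log2 fold change of a pair minus the sum of those of its 2 ligands, so that 0 means that the log2 effects add up. Of 105 interactions over the 5 genes, 10 were called negative and 7 positive at an adjusted p under 0.05, against 3.5% and 1.08% over all genes. These contrasts share the Ctrl libraries and the single ligands, so they are not independent of each other. For Fcgr1, all 6 pairs of LPS, SeV, cGAMP and CpGB were below the sum. LPS+cGAMP gave 254, 284 and 307 CPM, all below every library of LPS alone (409 to 483 CPM) and of cGAMP alone (503 to 520 CPM), an interaction of -3.69 (SE 0.45, adjusted p = 2.35e-12). SeV+cGAMP gave 385, 404 and 683 CPM and overlapped both of its ligands, an interaction of -3.36 (SE 0.44, adjusted p = 8.75e-11). The other interactions were -3.26 for LPS+SeV, -2.86 for cGAMP+CpGB, -2.82 for SeV+CpGB and -2.55 for LPS+CpGB. The means of these 6 pairs, 281 to 491 CPM, lay within the range of the 4 single-ligand means, 252 to 624 CPM.

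Fcgr3 had 6 positive interactions, and all 21 of its values were above 0. Each of these values adds the same Ctrl mean, which for Fcgr3 is the highest of the 64 groups. Their shared sign is therefore not 21 separate observations. PAM alone and Zymosan alone each lowered it, to means of 121 and 158 CPM, while PAM+Zymosan had 368, 324 and 250 CPM, above every library of either ligand (2.58, SE 0.35, adjusted p = 8.79e-10). The other positive values were 2.04 for PAM+LPS, 1.93 for LPS+Zymosan, 1.82 for Zymosan+CpGB, 1.73 for LPS+CpGB and 1.21 for Zymosan+cGAMP. The last had an adjusted p of 0.036 and did not pass without Ctrl replicate 2 (1.11, adjusted p = 0.133) or Ctrl replicate 3 (1.06, adjusted p = 0.220). With libraries thinned to equal depth, PAM+LPS (1.35, adjusted p = 0.124), Zymosan+CpGB (1.62, adjusted p = 0.0579) and Zymosan+cGAMP (0.88, adjusted p = 0.544) did not pass.

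Fcgr4 had 1 positive and 1 negative interaction. PAM+LPS gave 191, 385 and 347 CPM, above every library of PAM alone (32.8 to 60.3 CPM) and overlapping LPS alone (1.93, SE 0.50, adjusted p = 0.00321). LPS+cGAMP gave 298, 201 and 217 CPM, below every library of cGAMP alone (-1.54, SE 0.41, adjusted p = 0.0033). Fcgr2b had 1 negative interaction, PAM+CpGB (-1.45, SE 0.35, adjusted p = 0.00108), where the pair had 553, 600 and 408 CPM and overlapped both ligands. Each of these Fcgr4 and Fcgr2b calls was lost with 1 replicate number left out of all groups: PAM+LPS without replicate 1 (1.65, adjusted p = 0.0593), and LPS+cGAMP (-1.40, adjusted p = 0.0624) and PAM+CpGB for Fcgr2b (-1.03, adjusted p = 0.0778) without replicate 3. For Fcer1g, PAM+CpGB (-0.75, SE 0.18, adjusted p = 0.000755) and LPS+CpGB (-0.57, SE 0.17, adjusted p = 0.0121) were negative. LPS+CpGB was above every library of either ligand. The count for Fcer1g was 5 without Ctrl replicate 3 and 1 with library size alone.

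**Figure D4:**
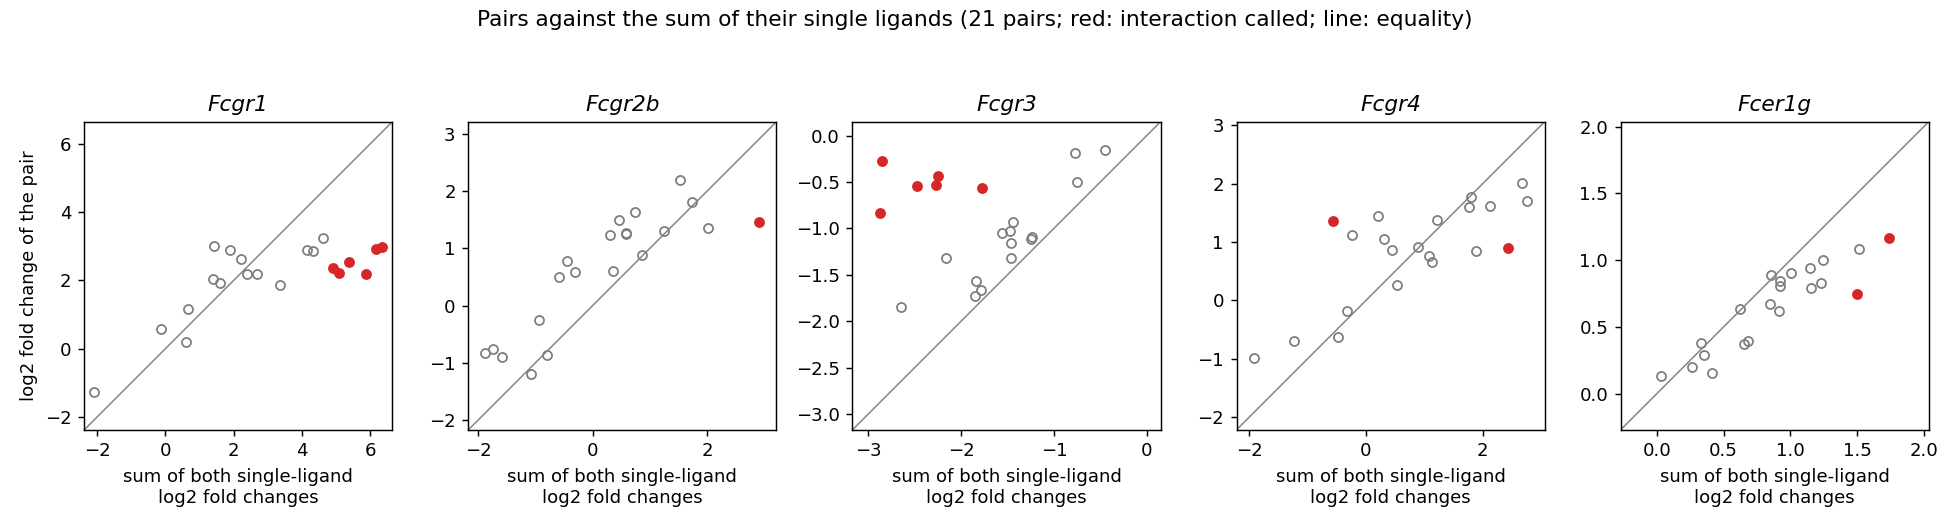
Log2 fold change of each of the 21 pairs against Ctrl, on the vertical axis, against the sum of the log2 fold changes of its 2 ligands, on the horizontal axis, per gene. The diagonal is additivity and filled points are interactions called at an adjusted p under 0.05. The 6 called Fcgr1 pairs lie below the diagonal by 2.55 to 3.69, and the 6 called Fcgr3 pairs lie above it by 1.21 to 2.58.

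No pair was called above or below both of its ligands by the fold threshold: 0 of 105 were called either way in edgeR, against 0.353% above and 0.0504% below over all genes. Fcgr3 with PAM+Zymosan (by at least 0.95, adjusted p = 0.0123) and Fcgr4 with LPS+CpGB (by at least 0.76, adjusted p = 0.0477) were above both ligands at the adjusted p and missed the fold threshold alone. Without the fold threshold, 12 were above and 1 below at an unadjusted p under 0.05, and DESeq2 called 0. Likewise 0 of 175 triplets were called above or below all 3 of their pairs, against 0.0115% above and 0% below over all genes. At an unadjusted p under 0.05 without the fold threshold, 1 was above and 1 below in edgeR, and 1 above and 0 below in DESeq2.

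The balance of the genes was described by the log2 ratio of the summed UMIs of Fcgr1, Fcgr3 and Fcgr4 to those of Fcgr2b. Only its differences between groups can be read, since counts of different genes are not levels per length, and it is given as a description with no test. Ctrl had 1.39, 1.03 and 2.30. PAM had -1.46, -1.57 and -1.73, the lowest mean of the 64 groups, and all of its libraries were below Ctrl. cGAMP had 3.29, 3.50 and 4.14, the highest mean, and all of its libraries were above Ctrl. HMW+SeV (mean 3.61), SeV+cGAMP (3.49) and SeV (3.48) followed cGAMP, while PAM+Zymosan (-1.13) and PAM+HMW (-0.98) were next to PAM. The 38 conditions with PAM or CpGB had means from -1.59 to 1.41 (median 0.69), and the 26 other groups, Ctrl included, from 0.59 to 3.64 (median 1.72).

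**Figure D5:**
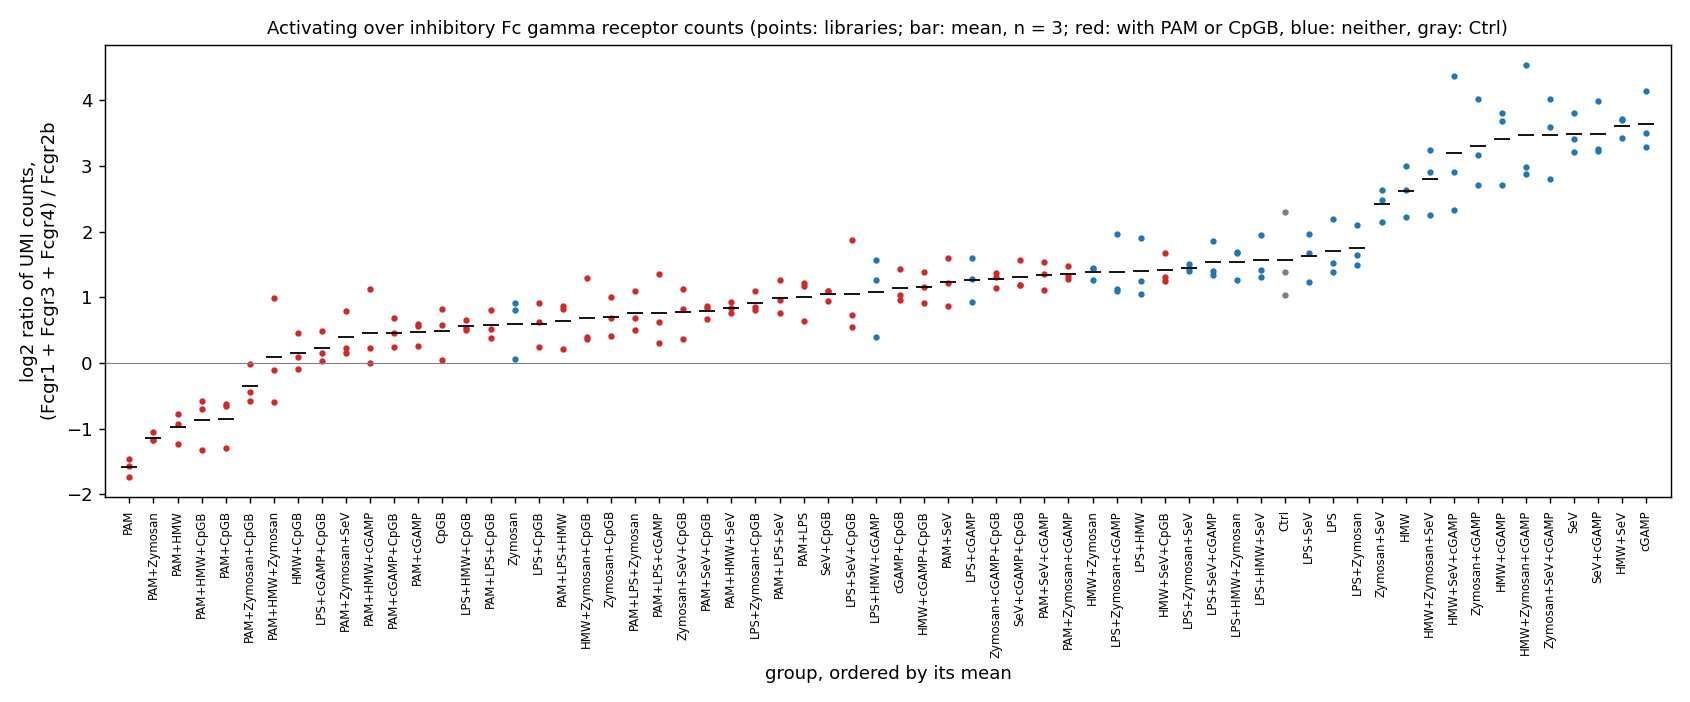
Log2 ratio of the summed UMIs of the activating receptor genes (Fcgr1, Fcgr3 and Fcgr4) to those of the inhibitory Fcgr2b in each library of the 64 groups, ordered by group mean. PAM is lowest (mean -1.59) and cGAMP highest (mean 3.64), and groups with PAM or CpGB reach up to 1.41.

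Correlations of group means (log2 CPM) over the 64 groups describe which genes had similar patterns. The groups share ligands and are not independent points, so no p is given. Fcgr1 and Fcgr4 had a Pearson r of 0.74 (Spearman 0.52) and Fcgr2b and Fcer1g one of 0.71 (Spearman 0.51). Fcgr3 was not close to any other member, its largest value being -0.29 with Fcer1g. Among 4715 tested genes that are not members, the 5 most like Fcgr1 were Gm14446 (r = 0.93), Ifit3 (0.92), I830012O16Rik (0.92), Serpina3g (0.91) and Ly6e (0.91). Ifit3 and Ly6e are known interferon-induced genes. The least like Fcgr1 were Hspd1 (-0.74), a mitochondrial chaperone, and Rps2 (-0.73), a ribosomal protein. For Fcgr4 they were Ccl12 (0.82), a monocyte-attracting chemokine, Fgl2 (0.80), Rgs1 (0.80), Gm14446 (0.80) and P2ry14 (0.79), and the least like were Irf2bp2 (-0.77) and Fam20c (-0.75). For Fcgr2b they were Saa3 (0.93), an acute-phase protein, Acpp (0.91), Lcp1 (0.91), the chemokine Ccl17 (0.90) and the cytokine Il1b (0.90), and the least like were Prcp (-0.87) and the immediate-early factor Fos (-0.87). For Fcer1g they included the actin-bundling Fscn1 (0.93), Slco3a1 (0.92), Fpr2 (0.90) and Cst3 (0.90), and the least like were Cotl1 (-0.89) and Neat1 (-0.88). With library size alone, Slco3a1 (0.80) ranked 23 and Cst3 (0.76) 47 of 4715, and Cotl1 (-0.70) ranked 4639. These rankings are by Pearson r: by Spearman, Ifit3 ranked 38 and I830012O16Rik 24 for Fcgr1, P2ry14 ranked 55 for Fcgr4 and Fpr2 ranked 28 for Fcer1g, and with library size alone Ly6e ranked 17 for Fcgr1. For Fcgr3 the values were lower: Olfm1 (0.68), Tbc1d14 (0.64), Nek6 (0.59), Lgals3 (0.58) and Myo5a (0.58), with Nlrp3 (-0.64) and Fam102b (-0.63) least like it. Against the summed level of 15 interferon-response genes, r was 0.83 for Fcgr1 (Spearman 0.42) and 0.76 for Fcgr4 (Spearman 0.50). Against that of 15 inflammatory genes, r was 0.73 for Fcgr2b (Spearman 0.60), 0.70 for Fcer1g (Spearman 0.51) and -0.40 for Fcgr3 (Spearman -0.35).

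Those 2 lists were taken from an earlier report on these data, so a rise of their genes may follow from that choice. Their counts are a description and not a test. Of 945 gene and condition combinations of the 15 interferon-response genes, 890 were called higher (median log2 fold change 3.78), and 687 of 819 were for the 13 tested inflammatory genes (median 3.24), against a median of -0.05 and 14.3% called higher over all genes. With PAM, 11 of 13 inflammatory genes and 2 of 15 interferon-response genes were called higher, beside 13.9% of all genes called in either direction. With SeV, 1 of 13 and 15 of 15 were, beside 15.6% of all genes. The 2 of 15 and the 1 of 13 are not above those all-gene shares. Of 10 transcription factors of the myeloid and interferon response, 8 were tested, and 392 of their 504 combinations were called higher (median 1.78). Stat2, which carries interferon signals to the nucleus, rose in 62 conditions, Irf7 (also among the interferon-response genes) in 60, Irf1 in 53, and Irf8, a factor of dendritic cell development, in 34.

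Of 19 ITAM signalling genes, which act downstream of the receptors, 17 were tested. Of their 1071 gene and condition combinations, 244 were called higher and 100 lower (median log2 fold change 0.09), against 14.3% higher and 9.03% lower over all genes, so the lower calls were near the all-gene share. Of the Src-family kinases, which phosphorylate ITAMs, Lyn rose in 58 conditions and Src in 52, and Fgr fell in 34. The adaptor Lcp2 rose in 61 conditions (median 1.72), and the adaptor Lat2 fell in 44 (median -1.68). Syk, the kinase that docks on the Fcer1g motif, was called higher in 5 conditions. Tyrobp, an ITAM adaptor of the same kind as Fcer1g, had a median log2 fold change of -0.63, and with LPS it was -0.86 (adjusted p = 1.84e-11).

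On the inhibitory side, 8 of 10 phosphatase and adaptor genes were tested, and 118 of 504 combinations were called lower and 0 higher in edgeR, against 9.03% lower and 14.3% higher over all genes, with 23 above Ctrl at an unadjusted p under 0.05 and 0 called higher by DESeq2. The adaptor Dok2 fell in 59 conditions (median -3.42) and Inpp5d, the phosphatase that Fcgr2b recruits, in 47 (median -2.51). With PAM, under which Fcgr2b rose, Inpp5d was -0.95 and did not pass (adjusted p = 0.31). Ptpn6, a phosphatase recruited by many ITIM receptors, had a median log2 fold change of 0.30. Of 11 other ITIM receptor genes, 8 were tested, with 21 of 504 combinations higher and 138 lower (median -0.27), against the same all-gene shares. Cd300a fell in 62 conditions and Clec4a2 in 52, Sirpa fell in 20, and Cd300lf rose in 14.

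Of 8 other receptors that pair with the Fcer1g chain, 4 were tested. Of their 252 combinations 61 were called higher and 39 lower, against 14.3% and 9.03% over all genes. All 61 higher calls were of Clec4e, which encodes the lectin Mincle (median 2.83). Clec4n, which encodes Dectin-2, fell in 36 conditions (median -1.14) and Cd300ld in 3 (median -0.93). Clec4d was called in 0 (median 0.24). Of 14 other Fc receptor genes, 3 were tested, and of their 189 combinations 53 were called higher and 18 lower, against 14.3% and 9.03% over all genes, so the lower calls were near the all-gene share. Trim21, the cytosolic antibody receptor, rose in 53 conditions (median 2.42), Fcgrt, the neonatal Fc receptor that recycles immunoglobulin G, fell in 16 (median -1.04), and Fcrls fell in 2. Fcer1a and Ms4a2, the other chains of the high-affinity immunoglobulin E receptor, had 9 and 8 UMIs in all libraries together.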

How the data were processed

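Expression was measured in 3 libraries for each of 64 groups of dendritic cells grown from bone marrow. The authors deposited UMI counts per gene symbol, which are whole numbers with no normalization, as the header and values of the table show. BWA 0.7.15 and the mm10 build are named in the submitters' processing notes; the annotation, the UMI collapsing rule, strand and the handling of multi-mapping reads are not given in the sources used here. All columns were mapped to samples by title. No columns were identical, and within-group pairs differed by more than counting noise (smallest chi-square per degree of freedom 1.11).

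In R 4.3.3 with edgeR 4.0.16 (limma 3.58.1), filterByExpr by group kept 4720 of 23481 genes and 95.7% of UMIs. With TMM scaling, 1 quasi-likelihood model with a coefficient per group was fitted to all libraries (128 residual degrees of freedom, biological coefficient of variation 10.3%). Within each contrast, p-values of all tested genes were adjusted by the Benjamini-Hochberg method. SE is the absolute log2 fold change divided by the root of F. CPM use TMM-scaled library sizes, and log2 CPM a prior count of 2. The members and gene lists were chosen with earlier results of these data known. Named genes were the members, for each the 5 most and 2 least correlated tested genes with at least 20 CPM in a group, and the related lists. Alternatives were RLE factors, library size alone, no filter, no fold threshold, DESeq2 1.42.0, a replicate block, thinning to 46564 UMIs, the ligand and Ctrl libraries alone, and leaving out replicates. The fit was tested on simulated data. Values of some genes of the lists are not reported here.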

Additional observations from a re-analysis of the deposited data

Results flagged for a closer look

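The 17 pair interactions that passed an adjusted p of 0.05 (edgeR's quasi-likelihood test) mark pairs in which 1 ligand's effect differed with and without the other. All share the Ctrl and single-ligand libraries, and 3.5% and 1.08% of all gene and pair combinations were called negative and positive. For Fcgr1 the values were -3.26 (LPS+SeV), -3.69 (LPS+cGAMP), -2.55 (LPS+CpGB), -3.36 (SeV+cGAMP), -2.82 (SeV+CpGB) and -2.86 (cGAMP+CpGB). For Fcgr2b the value was -1.45 (PAM+CpGB). For Fcgr3 they were 2.04 (PAM+LPS), 2.58 (PAM+Zymosan), 1.93 (LPS+Zymosan), 1.73 (LPS+CpGB), 1.21 (Zymosan+cGAMP) and 1.82 (Zymosan+CpGB). For Fcgr4 they were 1.93 (PAM+LPS) and -1.54 (LPS+cGAMP), and for Fcer1g -0.75 (PAM+CpGB) and -0.57 (LPS+CpGB).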

How the results depend on the processing

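The count of Fcgr1 conditions above Ctrl stayed between 53 and 57 under every alternative run, and single-ligand against single-ligand calls between 40 and 45 of 105, apart from 70 of 105 without the fold threshold. Other counts moved; the cause was not tested. With library size alone, Fcgr2b had 19 conditions higher and 10 lower, Fcgr3 39 lower, Fcgr4 18 higher and 2 lower, Fcer1g 0 higher and 1 negative interaction, and ligand-added means 2 lower. With RLE factors Fcer1g had 1 higher. With DESeq2, Fcgr1 had 1 lower, Fcgr4 2 lower and Fcer1g 1 higher. Without the filter, Fcgr2b had 1 lower, Fcgr3 11 lower, Fcgr4 0 lower and 3 negative interactions, Fcer1g 34 higher and 4 negative interactions, ligand-added means 0 lower, and 1 triplet was above its 3 pairs. Without the fold threshold Fcgr3 had 42 lower and Fcer1g 52 higher. Thinned to 46564 UMIs, Fcgr2b had 21 higher and 7 lower, Fcgr3 3 positive interactions, Fcgr4 0 lower, 0 positive and 0 negative interactions, and Fcer1g 0 higher and 0 negative interactions.

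With a replicate left out, the counts ranged as follows: conditions higher for Fcgr2b from 26 to 43, for Fcgr4 from 26 to 41 and for Fcer1g from 4 to 28 (28 without Ctrl replicate 3), lower for Fcgr2b from 0 to 8, lower for Fcgr3 from 15 to 29 (15 without Ctrl replicate 3), lower for Fcgr4 from 0 to 1, negative interactions for Fcer1g from 2 to 5, for Fcgr2b from 0 to 1 and for Fcgr4 from 0 to 1, positive ones for Fcgr4 from 0 to 1, ligand-added means lower from 0 to 1 and triplets above their pairs from 0 to 1. Deviations of same-numbered libraries were nearly uncorrelated (from -0.015 to 0.030 against Ctrl, median 0.008). Counting noise in shallow libraries lowers such correlations, so they cannot settle whether the replicate numbers pair the libraries. With the replicate block the counts were 54 for Fcgr1, 34 and 4 for Fcgr2b, 24 for Fcgr3, 33 and 1 for Fcgr4 and 5 for Fcer1g.

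Values near 0, none of them called, changed sign. Fcgr2b with Zymosan against Ctrl was 0.11 without the filter and 0.059 thinned, and -0.32 to 0.34 with a replicate left out. Fcgr3 with PAM+Zymosan+CpGB was 0.13 without the filter and -0.18 to 0.14 with a replicate left out. Fcgr4 with HMW was -0.015 thinned and -0.11 to 0.32 with a replicate left out. Fcer1g with HMW was 0.15 without the filter, 0.030 thinned and -0.098 to 0.16 with a replicate left out. Fcer1g with Zymosan was -0.083 with RLE factors and DESeq2, -0.090 with library size alone, -0.050 with the Zymosan and Ctrl libraries alone and -0.017 to 0.22 with a replicate left out. Among the means of adding a ligand, library size alone gave -0.0069 for HMW on Fcgr2b, -0.043 for Zymosan on Fcgr2b, -0.086 for LPS on Fcgr3, -0.037 for CpGB on Fcgr3 and -0.072 for cGAMP on Fcer1g. Thinning gave -0.11 for HMW on Fcgr2b, -0.023 for SeV on Fcgr3, -0.066 for HMW on Fcgr4 and -0.00015 for cGAMP on Fcer1g. RLE factors and DESeq2 gave -0.017 for Zymosan on Fcgr2b, and the unfiltered fit 0.015 for cGAMP on Fcgr3 and 0.015 for HMW on Fcer1g. With a replicate left out, the means ranged from -0.014 to 0.045 for HMW on Fcgr2b, -0.012 to 0.049 for Zymosan on Fcgr2b, -0.080 to 0.065 for cGAMP on Fcgr3 and -0.0035 to 0.086 for HMW on Fcgr4. Correlations with the most and least similar genes moved by more than 0.05 in 35 of 105 values, from 35 gene pairs under 3 alternatives. Depth limits the single values, with as few as 2 UMIs of Fcgr1 in a library.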
